A study of Homo sapiens with 6 samples.

Results

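The matrix metalloproteinase (MMP), ADAM, ADAMTS and TIMP genes were read in cardiomyocytes made from human induced pluripotent stem cells. Members were taken by symbol alone, as MMP, ADAM or ADAMTS followed by a number or as TIMP1 to TIMP4, and pseudogenes were left out. The rule found 65 of the 35793 genes listed, namely 22 MMP, 20 ADAM, 19 ADAMTS and 4 TIMP genes. ADAM5 and ADAM6, which RefSeq calls pseudogenes, were left out. MMP23B carries a letter after its number and was left out by its symbol alone. It was at 991, 2005 and 1242 normalized counts in the wild-type libraries and 2283, 844 and 1205 in the knockout libraries (log2 fold change -0.03, limma adjusted p = 0.976). Its mean per kb of exon was above that of every MMP taken by the rule. In wild type it was 1014, against 870 for MMP15, the highest of these, and in knockout 1037 against 433.

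The cells came from WTC11, an established human induced pluripotent stem cell line. Wild-type WTC11 cells and a homozygous STK25 knockout line, made in the same line with CRISPR/Cas9, were both differentiated to cardiomyocytes, kept in RPMI 1640 medium with B27 and collected on day 15 with no further treatment. Bulk RNA-seq was made from 3 wild-type and 3 knockout samples that the labels call biological replicates, without saying whether each was a separate differentiation. Each genotype is represented by 1 line, so a change that belongs to STK25 loss and a change that belongs to this knockout line cannot be told apart, and p-values measure only the spread between these samples.

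MMPs are zinc-dependent proteases that cut collagens, gelatins and other matrix proteins, and they are made as inactive zymogens. ADAMs are membrane-anchored relatives, and those with an intact catalytic site act as sheddases that release the outer parts of growth factors, receptors and adhesion proteins. ADAMTS enzymes are secreted and bind the matrix, where several cut the proteoglycans versican and aggrecan or help to build fibrillin microfibrils. TIMPs are the secreted inhibitors of these proteases. In the heart the 4 families are known for remodelling of the cardiac jelly and valves during development and of the collagen network after injury.

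The deposited values are normalized counts, that is, reads divided by 1 scaling factor per library. Whole counts recovered from these values, called reads here, summed to 22443904 to 53224112 per library over the genes listed. STK25 itself was at 8874, 6774 and 8710 normalized counts in the wild-type libraries and at 3906, 3434 and 3820 in the knockout libraries (log2 fold change -1.12, SE 0.19, limma adjusted p = 0.00903), so its RNA was lower but present in the knockout. Wild-type replicate 2 and knockout replicate 1 stood apart from the other libraries of their genotypes on the second principal component (24.1% of the variance). The first component (55.6%) separated the genotypes. The summed level of 10 cardiomyocyte markers was 1250690 to 1587410 in wild type and 1774710 to 3280770 in knockout, with 0 higher and 2 lower (PLN and NKX2-5). MYL7 gave 53.2% of this sum, and without it the sums were 807700 to 864334 and 914096 to 956362.

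Of the 65 members, 6 had no read in any library and 16 more had reads but a mean below 10 normalized counts, which left 43 members tested. Log2 fold changes, knockout minus wild type, were fitted with limma on log2(normalized count + 1) over all 15536 genes with a mean of at least 10, with Benjamini-Hochberg adjustment and a threshold of 0.05. At that threshold 10 of the 43 tested members (23.3%) differed, beside 12.8% of all tested genes. TIMP1, MMP15, MMP19, ADAM11, ADAM22, ADAMTS6 and ADAMTS19 fell, 7 members beside a background of 6.79% of genes lower. ADAM19, ADAMTS15 and ADAMTS18 rose, 3 members beside 5.97% of genes higher. With libraries scaled to equal totals the split was 1 higher and 10 lower, beside 546 higher and 1466 lower among all tested genes. With edgeR, run on recovered reads, the split was 4 higher and 6 lower, beside 12.0% of all tested genes called. The wild-type and knockout values did not overlap for 23 members (53.5%), 8 higher and 15 lower in knockout, beside 33.4% of all tested genes. The median log2 fold change was -0.43 over the tested members and 0.01 over all tested genes. Of the tested members, 8 had a mean below 10 in 1 genotype and so entered the test through the other genotype: ADAM18, ADAM21, ADAM22, ADAMTS5, ADAMTS18, ADAMTS19, MMP1 and MMP19.

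**Figure D1:**
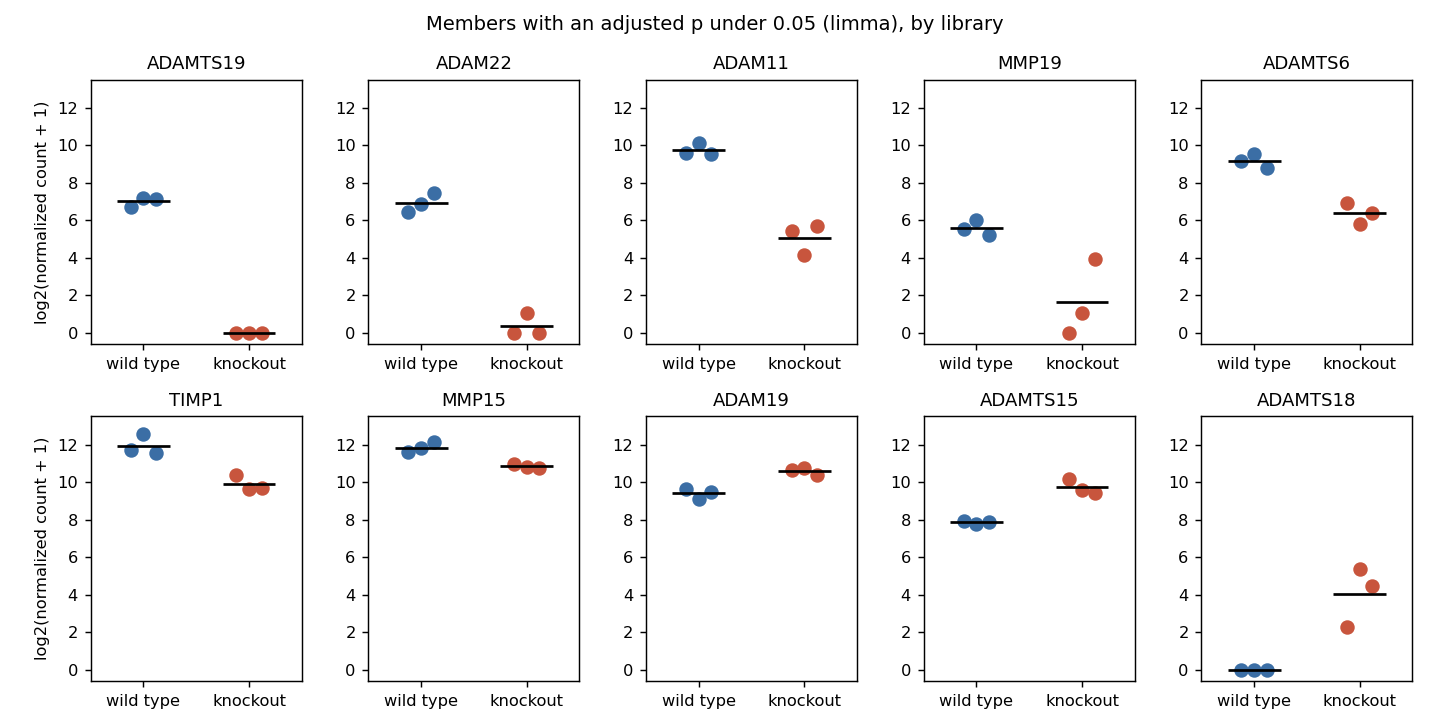
Level of the 10 members with a limma adjusted p under 0.05 in each library, as log2(normalized count + 1), with wild-type libraries in blue, knockout libraries in red and a bar at the mean of each genotype (n = 3). ADAMTS19 and ADAM22 sit at or near 0 in all knockout libraries, ADAMTS18 at 0 in all wild-type libraries, and the genotypes do not overlap for any of the 10 members.

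The 4 TIMP genes came down as a sum, and TIMP1 carried most of the difference. TIMP1 (chrX:47582313-47586789, GRCh38), a secreted inhibitor of most soluble MMPs, was at 3359, 6103 and 2950 normalized counts in wild type and at 1336, 805 and 809 in knockout. All 3 knockout libraries were below all 3 wild-type libraries, and the fitted change was -2.04 on the log2 scale (SE 0.33, limma adjusted p = 0.00790). The call held in all 20 alternative analyses, with values from -2.32 to -1.72. TIMP3, which binds the matrix and also inhibits ADAM17 and several ADAMTS enzymes, was at 5447, 3691 and 6459 in wild type and at 1916, 3846 and 3388 in knockout. Wild-type replicate 2 lay below knockout replicate 2, so the genotypes overlapped, and the change of -0.79 (SE 0.32) did not pass the test (limma adjusted p = 0.158). Without wild-type replicate 2 and knockout replicate 1 together it was -0.72 with a limma adjusted p of 0.00357, and over all alternatives the adjusted p ran from 0.00357 to 0.392. These are the libraries that stood apart within their genotypes. Leaving them out narrows the spread by that choice, so the lower p-value is no separate evidence of a change.

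TIMP2, which besides inhibiting MMPs bridges pro-MMP2 to MMP14 at the cell surface, was at 133, 275 and 86.1 normalized counts in wild type and at 700.4, 181 and 220.4 in knockout. Knockout replicate 1 stood far above the other 5 libraries, and the change of 1.04 (SE 0.61) did not pass the test (limma adjusted p = 0.322). Without that library it was 0.44. TIMP4, the member of the family best known from adult heart muscle, stayed at or below 22.9 in every library and was not tested. Levels of different genes were compared per kb of exon. That length merges the exons of all annotated transcripts of a gene, so the comparison between genes is rough. Wild-type means per kb were 2836 for TIMP1, 1129 for TIMP3, 40.4 for TIMP2 and 2.42 for TIMP4, and knockout means were 674, 663, 90.1 and 7.41. TIMP1 thus stood above TIMP3 in the wild-type mean, and the pair lay within their spread in knockout (SD 209 and 219, n = 3).

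Among the 22 MMP members the membrane-anchored enzyme MMP15 had the highest level per kb of exon, and it fell. MMP15 (MT2-MMP, chr16:58025566-58046901), which can activate pro-MMP2, was at 3057, 3590 and 4451 normalized counts in wild type and at 1992, 1783 and 1749 in knockout. The genotypes did not overlap, and the change was -0.99 (SE 0.20, limma adjusted p = 0.0184). It lost the call without wild-type replicate 3 (-0.85, limma adjusted p = 0.0800), without knockout replicate 2 (adjusted p = 0.0613), without knockout replicate 3 (adjusted p = 0.0819) and with a replicate block (adjusted p = 0.108), and over all alternatives the adjusted p ran from 0.000164 to 0.108. MMP15 made up 60.3% of the signal per kb of these 22 members, averaged over libraries, and MMP11 made up 19.0%. With MMP23B counted too, MMP23B made up 48.7%, MMP15 31.0% and MMP11 9.75%. MMP11, a stromelysin that is activated by furin inside the cell, was at 489, 420 and 728 in wild type and 379, 398 and 409 in knockout, with no overlap but no call (-0.43, SE 0.27, limma adjusted p = 0.356).

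The gelatinases MMP2 and MMP9 cut denatured collagen and collagen IV. MMP2 was at 791, 602 and 1276 normalized counts in wild type and at 103, 272 and 431 in knockout. All knockout libraries were lower, yet the change of -1.88 (SE 0.53) lay just outside the threshold (limma adjusted p = 0.0581), and over all alternatives the adjusted p ran from 0.00256 to 0.185. MMP2 shares 174 exon bases on the same strand with the locus AC007336.3, whose reads may be hard to tell from its own. MMP9 had 13.6, 12.2 and 25.5 in wild type and no read in the 3 knockout libraries. Its mean was below the filter, so it was not tested in the fit reported here, and against a floor of 3 reads per library it was at least 5.22-fold lower. It passed the test where the filter was dropped and where knockout replicate 1 was left out.

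MMP19 (chr12:55835433-55842966), a secreted MMP, was low throughout, at 45.3, 64.7 and 37.0 normalized counts in wild type and 0, 1.11 and 14.2 in knockout. The change was -3.94 (SE 1.04, limma adjusted p = 0.0457). This call was lost in 11 of the 19 alternatives in which it was tested, among them each one that left out a wild-type replicate, knockout replicate 1 or knockout replicate 2, with adjusted p from 0.0180 to 0.145 over all of them. MMP24 (MT5-MMP), a membrane-anchored enzyme best known from neurons, went the other way at 51.4, 28.9 and 33.8 in wild type and 57.2, 370.0 and 264 in knockout. Knockout replicate 1 lay just above the highest wild-type library and the other two far above it. The change of 2.24 (SE 0.69) did not pass the test (limma adjusted p = 0.0765), and without knockout replicate 1 it was 3.05 with an adjusted p of 0.00438, in a range from 0.000404 to 0.226 over all alternatives. MMP14, the main activator of MMP2, was low, at 33.8 to 45.3 in wild type and 61.3 to 90.2 in knockout (0.86, limma adjusted p = 0.204).

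The MMP genes of the chromosome 11 cluster, among them the interstitial collagenases, were close to silent. The 9 genes MMP7, MMP20, MMP27, MMP8, MMP10, MMP1, MMP3, MMP12 and MMP13 lie together in a cluster at chr11:102520508-102955734, and all of them together had 28, 8 and 37 reads in the wild-type libraries and 1, 2 and 6 in the knockout libraries. MMP1 gave 62 of these 82 reads, and MMP20 and MMP27 had none. MMP1 was the only gene of the 9 above the filter and did not pass the test (-2.31, SE 1.57, limma adjusted p = 0.396), and the other 8 were not tested. Beside MMP20 and MMP27, MMP26, ADAM2, ADAM7 and ADAM30 also had no read.

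Upstream sequences are shown for MMP10, as an example of the cluster genes, and for ADAM19 and ADAMTS6, which are expressed members with higher and lower RNA in knockout, to let their base composition be seen side by side. Each is the 250 bases before the gene's start in RefSeq on GRCh38.p14, 5′ to 3′ on the minus strand, on which all 3 genes lie. Capitals mark TGANTCA, a loose form of the AP-1 motif that allows any base at N. In MMP10 that base is A, so the match is to the loose form only. The regions are chr11:102780629-102780878 for MMP10, chr5:157575776-157576025 for ADAM19 and chr5:65481921-65482170 for ADAMTS6.
MMP10: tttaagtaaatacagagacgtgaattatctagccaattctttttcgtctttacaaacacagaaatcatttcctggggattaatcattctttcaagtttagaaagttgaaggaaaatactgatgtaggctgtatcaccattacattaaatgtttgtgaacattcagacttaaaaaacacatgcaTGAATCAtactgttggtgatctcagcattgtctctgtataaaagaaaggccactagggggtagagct
ADAM19: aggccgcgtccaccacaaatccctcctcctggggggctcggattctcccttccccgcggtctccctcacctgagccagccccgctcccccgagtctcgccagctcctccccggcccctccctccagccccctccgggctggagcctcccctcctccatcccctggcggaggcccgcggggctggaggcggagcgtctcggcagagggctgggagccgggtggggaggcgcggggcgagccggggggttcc
ADAMTS6: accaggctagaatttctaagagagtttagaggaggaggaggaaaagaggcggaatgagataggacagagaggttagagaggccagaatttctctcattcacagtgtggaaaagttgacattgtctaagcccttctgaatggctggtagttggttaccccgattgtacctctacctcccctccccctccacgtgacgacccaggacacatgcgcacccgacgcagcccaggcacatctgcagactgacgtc

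MMP10 has 34.4% G and C in this window, ADAM19 76.4% and ADAMTS6 52.4%. RefSeq promoters were at hand for 38 of the 65 members. The windows of 5 cluster MMPs held 32.8% to 41.6% G and C and at most 3 CpG pairs, those of 25 tested members outside the cluster 39.6% to 80.8% (median 73.6%), and those of 8 members outside the cluster that were too low to test 36.4% to 73.6% (median 55.0%). Low RNA thus did not go with few G and C in all members, and ADAM12, with 23 reads in all, had 73.6%. The median over all 27305 promoters was 58%. TGANTCA, which is its own reverse complement, was found within 250 bases before to 50 bases after the start in 4 of 38 members (10.5%), namely MMP7, MMP10, MMP20 and ADAMTS12, beside 7.76% of all promoters. In MMP7 and MMP10 it began 67 bases before the start. It was found in 0 of 7 members that changed and had a promoter entry, which says only that these letters are not in those windows.

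**Figure D2:**
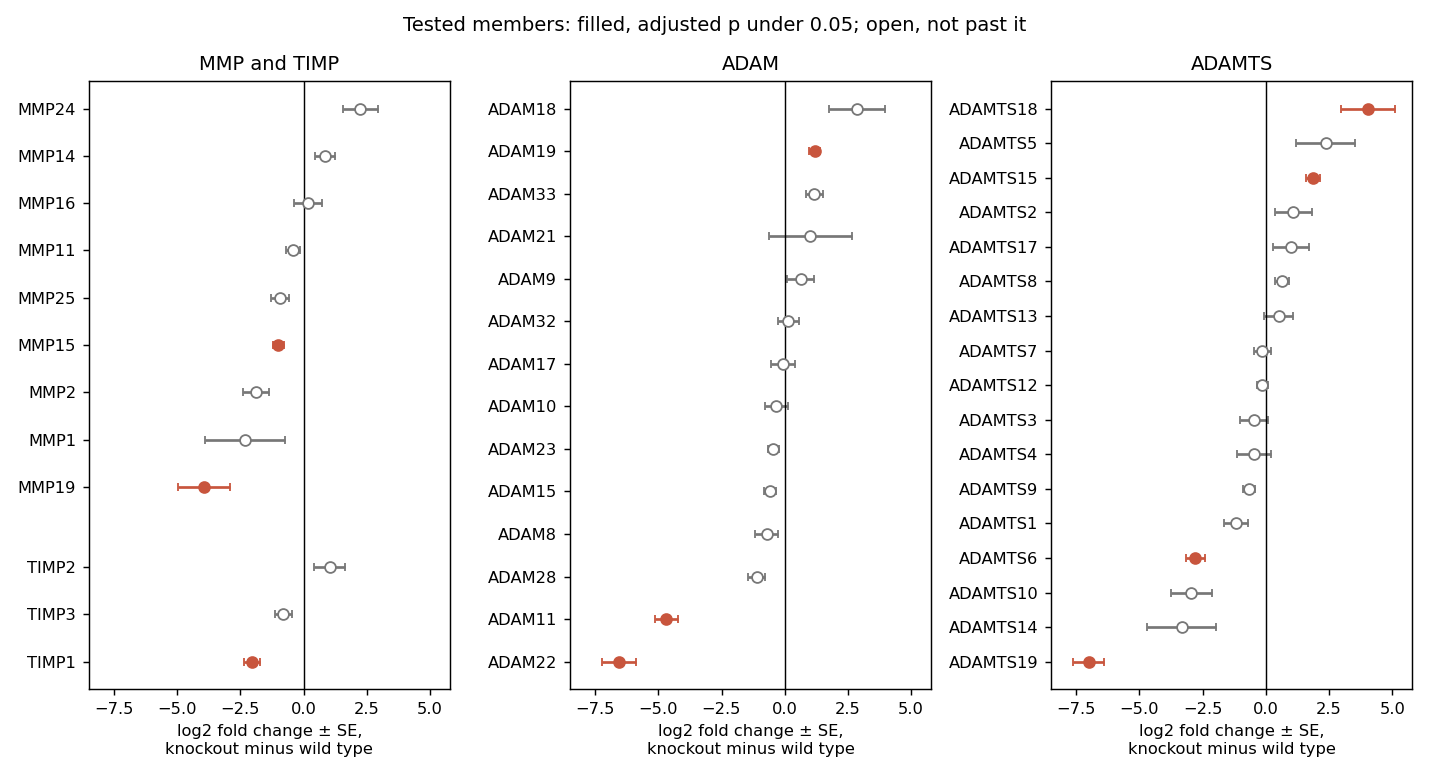
Log2 fold change of each of the 43 tested members, knockout minus wild type, with its standard error from limma (3 against 3 libraries), ordered within the families. Filled red points have an adjusted p under 0.05; the fitted values run from -7.02 for ADAMTS19 to 4.04 for ADAMTS18.

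The broad sheddases of the ADAM family were abundant and did not pass the test. ADAM9 was at 3034, 1148 and 3455 normalized counts in wild type and at 1766, 5584 and 4596 in knockout (0.64, SE 0.54, limma adjusted p = 0.504). ADAM10, which sheds Notch, cadherins and many other proteins, was at 3309, 1566 and 4130 in wild type and 1276, 3495 and 2392 in knockout (-0.33, SE 0.46, limma adjusted p = 0.704). ADAM17, the enzyme that releases tumour necrosis factor and several epidermal growth factor receptor ligands, was at 1223, 497 and 1140 in wild type and 468, 1248 and 1034 in knockout (-0.07, SE 0.47, limma adjusted p = 0.951). For all 3 genes the lowest library of each genotype was wild-type replicate 2 or knockout replicate 1, by a factor that exceeded the difference between the genotypes. Leaving out 1 library turned the sign for ADAM10 (0.06 without knockout replicate 1) and for ADAM17 (-0.48 to 0.36). Exons of ADAM17 share 1257 bases with IAH1 on the opposite strand, and those of ADAM10 share 136 bases with AC018904.1, and strand use in the counting is not given in the sources used here. Without wild-type replicate 2 and knockout replicate 1 together, ADAM9 was at 0.65 with a limma adjusted p of 0.00768, in a range from 0.00768 to 0.873 over all alternatives. In that fit the spread is narrowed by the choice of libraries.

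ADAM19 (meltrin beta, chr5:157395534-157575775) rose. This sheddase, known to cut neuregulin and to be needed for endocardial cushion development in mice, was at 791, 551 and 705 normalized counts in wild type and at 1591, 1701 and 1339 in knockout, with no overlap. The change was 1.19 (SE 0.22, limma adjusted p = 0.0135). It did not pass with equal totals (0.90, adjusted p = 0.0712), with a replicate block (adjusted p = 0.0782), without wild-type replicate 3 (adjusted p = 0.0516) or without knockout replicate 2 (adjusted p = 0.0522), and the adjusted p ran from 2.45e-05 to 0.0782 over all alternatives. ADAM15, another catalytic member that binds integrins, was at 468 to 501 in wild type and 294 to 377 in knockout (-0.58, limma adjusted p = 0.146).

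Of the ADAMs without a working catalytic site that act as cell surface binding proteins in the nervous system, ADAM11 and ADAM22 fell and ADAM23 did not pass the test. ADAM11 (chr17:44759031-44781846) was at 773, 1135 and 748 normalized counts in wild type and at 41.9, 16.7 and 50.7 in knockout, so the lowest wild-type library was far above the highest knockout library. Its change was -4.68 (SE 0.45, limma adjusted p = 0.000938). ADAM22 (chr7:87934143-88202889), a receptor for the secreted protein LGI1, was at 86.1, 117 and 175 in wild type and at 0, 1.11 and 0 in knockout. That is 485 reads against 1, a wild-type to knockout ratio of 385 with a 95% counting interval from 68.7 to 15221, and the fitted change was -6.57 (SE 0.67, limma adjusted p = 0.00115). Counting intervals and floors cover counting error only. ADAM23, a close relative of ADAM22, was at 574, 523 and 566 in wild type and 408, 397 and 413 in knockout (-0.45, SE 0.21, limma adjusted p = 0.211). The calls of ADAM11 and ADAM22 held in all 20 alternatives.

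ADAM33 and ADAM28, both at low levels, lay just outside the threshold. ADAM33 was at 68.0, 78.5 and 69.5 normalized counts in wild type and at 127, 184 and 188 in knockout (1.18, SE 0.33, limma adjusted p = 0.0538), and passed without knockout replicate 1 (1.36, adjusted p = 0.0334, in a range from 0.00341 to 0.176 over all alternatives). ADAM28, known from lymphocytes, was at 143, 139 and 179 in wild type and at 73.7, 83.6 and 56.9 in knockout (-1.11, SE 0.33, limma adjusted p = 0.0687). Of the ADAMs known from sperm, ADAM18 was low, at 0 to 16.6 in wild type and 20.3 to 56.9 in knockout (2.87, SE 1.11, limma adjusted p = 0.140). ADAM12 had 1 read in wild type and 22 in knockout, a knockout to wild-type ratio of 27.7 with a 95% counting interval from 4.48 to 1145, and 17.8 of its normalized counts came from knockout replicate 3.

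Among the 17 tested ADAMTS genes the largest fall was that of ADAMTS19 (chr5:129460265-129738683), a gene whose loss is known to cause heart valve disease in humans. It was at 104, 144 and 141 normalized counts in wild type and had no read in any knockout library, which makes it at least 39.6-fold lower against a floor of 3 reads per library (479 wild-type reads). The fitted change was -7.02 (SE 0.61, limma adjusted p = 0.000565). Its exons share 120 bases with AC008591.1 and 58 bases with ADAMTS19-AS1 on the opposite strand. Its closest relative, ADAMTS17, was at 6.09 to 31.9 in wild type and 20.3 to 50.2 in knockout (1.00, SE 0.72, limma adjusted p = 0.421).

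ADAMTS6 and ADAMTS10 are relatives that act on fibrillin microfibrils, and ADAMTS6 is needed for normal heart development in mice. ADAMTS6 (chr5:65148736-65481920) fell, from 569, 753 and 448 normalized counts in wild type to 122, 54.6 and 83.5 in knockout (-2.79, SE 0.37, limma adjusted p = 0.00339). ADAMTS10 was at 68.0, 222 and 190.1 in wild type and at 5.08, 44.6 and 22.2 in knockout. These values did not overlap, but the spread was wide and the change of -2.95 (SE 0.81) lay just outside the threshold (limma adjusted p = 0.0531). ADAMTS10 passed without knockout replicate 2 (-3.59, adjusted p = 0.0389) and with a replicate block (adjusted p = 0.0297), and over all alternatives the adjusted p ran from 0.00265 to 0.166.

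Of the ADAMTS enzymes known to cut versican or aggrecan, ADAMTS15 passed the test and ADAMTS1, ADAMTS4, ADAMTS5, ADAMTS8 and ADAMTS9 did not. ADAMTS15 (chr11:130448974-130476641) rose, from 245, 216 and 233 normalized counts in wild type to 1152, 766 and 676 in knockout (1.86, SE 0.27, limma adjusted p = 0.00460). ADAMTS1 was at 2840, 1623 and 3727 in wild type and at 553, 1669 and 1589 in knockout, so that wild-type replicate 2 lay below knockout replicate 2 (-1.18, SE 0.48, limma adjusted p = 0.158). Without wild-type replicate 2 and knockout replicate 1 together, a choice of libraries that narrows the spread, its adjusted p was 0.00127. Over all alternatives it ran from 0.00127 to 0.385. ADAMTS9 was within 1761 to 1769 in the 3 wild-type libraries and at 1502, 1019.8 and 896 in knockout (-0.67, SE 0.24, limma adjusted p = 0.109). It passed without knockout replicate 1 (-0.89, adjusted p = 0.0229, in a range from 0.00251 to 0.310 over all alternatives), and its exons share 174 bases with ADAMTS9-AS1 on the opposite strand. ADAMTS8 was at 191 to 254 in wild type and 288 to 415 in knockout (0.65, limma adjusted p = 0.173). ADAMTS4 and ADAMTS5, the main aggrecanases of cartilage, were low, with means of 52.2 and 9.83 in wild type and 30.3 and 34.1 in knockout, and neither passed (limma adjusted p = 0.707 and 0.239).

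Per kb of exon the wild-type means of these enzymes were 526 for ADAMTS1, 203 for ADAMTS9 and 40.8 for ADAMTS15, and the knockout means were 245, 131 and 152. ADAMTS1 was thus well above ADAMTS15 in wild type (SD 203 and 2.51, n = 3), whereas the knockout means lay within their spread (SD 120 and 44.5, n = 3).

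ADAMTS18 (chr16:77247813-77435114) was read only in knockout, with 0, 0 and 0 normalized counts in wild type and 3.81, 40.1 and 21.3 in knockout. Against a floor of 3 reads per library it was at least 7.48-fold higher (63 knockout reads), and the fitted change was 4.04 (SE 1.08, limma adjusted p = 0.0487). The call was lost in 8 of the 17 alternatives in which it was tested, among them each one that left out a wild-type replicate, with adjusted p from 0.00123 to 0.125 over all 17. Its exons share 136 bases with AC009139.1 on the opposite strand. ADAMTS12, which like ADAMTS7 carries a mucin-like domain and can cut cartilage oligomeric matrix protein, was at 1465, 1873 and 1376 in wild type and 1715, 1257 and 1287 in knockout (-0.15, SE 0.22, limma adjusted p = 0.730). Of the procollagen N-propeptidases, ADAMTS2, ADAMTS3 and ADAMTS14 were low and none passed the test (1.09, -0.46 and -3.32, with limma adjusted p of 0.397, 0.648 and 0.163), although ADAMTS14 passed without knockout replicate 3. ADAMTS14 was at 37.8, 31.2 and 26.2 in wild type and at 0, 0 and 32.9 in knockout.

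Summed per kb of exon, TIMP, MMP and ADAMTS signal of the members was lower in every knockout library than in every wild-type library, and ADAM signal overlapped. For the MMP genes this held only without MMP23B. The TIMP sum was 4008 ± 906 in wild type and 1434 ± 83.1 in knockout (SD, n = 3), which is 35.8% of the wild-type mean. For the MMP genes it was 1397 ± 289 and 764 ± 36.2 (54.7%), and for the ADAMTS genes 1239 ± 176 and 899.7 ± 22.4 (72.6%). The ranges of the genotypes did not overlap for these 3 families. With MMP23B added, an alternative chosen after seeing the data, the MMP sum was 2412 ± 427 and 1800.4 ± 505 (74.7%), and the ranges overlapped. An exact two-sided permutation test of 3 against 3 libraries cannot go below p = 0.1, so no test was run on the sums. The ADAM sum was 1521 ± 348 and 1592 ± 518 (105%) with overlapping ranges. Sums not divided by length gave 46.4%, 53.6%, 72.8% and 104% for TIMP, MMP, ADAMTS and ADAM. Each sum rests mainly on 1 or a few genes: TIMP1 made up 64.5% of the TIMP sum per kb, MMP15 60.3% of the MMP sum, ADAMTS1 36.0% of the ADAMTS sum and ADAM9 35.3% of the ADAM sum. Between the genotype means, TIMP1 went from 2836 to 674 per kb and ADAMTS1 from 526 to 245. Each of these falls is most of the fall in the sum of its family, so neither sum shows a fall across its family. ADAMTS1 itself overlapped between the genotypes and did not pass the test.

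**Figure D3:**
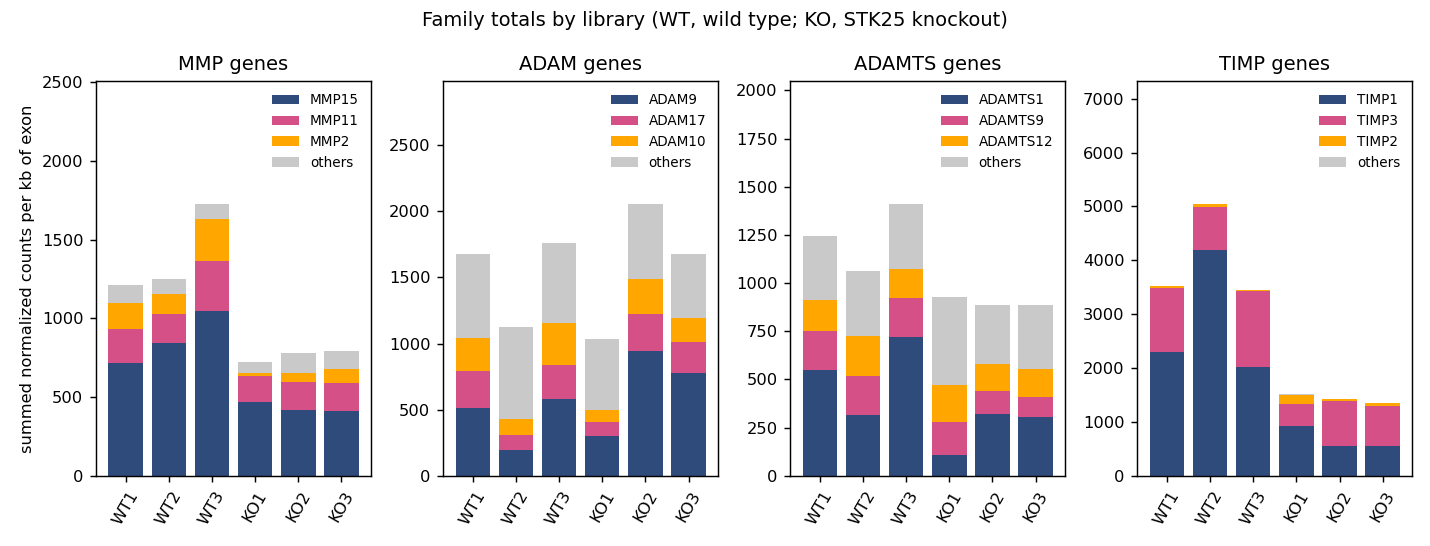
Summed normalized counts per kb of exon for the members of each family (MMP23B not included) in each library (WT, wild type; KO, STK25 knockout; the number is the replicate), stacked by the 3 members with the highest mean per kb and all others. TIMP bars fall from between 3452 and 5054 in wild type to between 1351 and 1518 in knockout, and the ADAM bars are lowest in WT2 and KO1.

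The spread within a genotype differed between members: it was wide for ADAM9, ADAM10, ADAM17 and ADAMTS1 and narrow for ADAMTS9 in wild type and MMP15 in knockout. Wild-type replicate 2 and knockout replicate 1 were both the lowest of their genotype for 10 of 43 tested members (23.3%, beside 30.4% of all tested genes), namely ADAM9, ADAM10, ADAM17, ADAM18, ADAMTS1, ADAMTS17, MMP2, MMP11, MMP24 and TIMP3. They were both the highest for 8 members (18.6%, beside 29.5% of all tested genes), namely TIMP1, TIMP2, ADAM8, ADAM32, ADAMTS5, ADAMTS6, ADAMTS9 and ADAMTS12. Both shares lay below those of all genes, so this pattern is not particular to the members. In these libraries short genes were relatively high: over the genes with the shortest exon length (at most 1998 bp) the median log2 deviation from the mean of the genotype was 0.38 in wild-type replicate 2 and 0.38 in knockout replicate 1, and -0.28 to -0.07 in the other 4. The part of this length difference in the values above was not tested. With both libraries left out, 22 members passed, 8 higher and 14 lower, beside 30.6% of all tested genes. These libraries were the ones that stood apart in the same data. Leaving them out narrows the spread within each genotype, so more genes pass through that choice. All 10 members called with every library were among them, and ADAM9, ADAM18, ADAM21, ADAM28, ADAM33, ADAMTS1, ADAMTS9, ADAMTS10, MMP1, MMP2, MMP24 and TIMP3 were added.

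**Figure D4:**
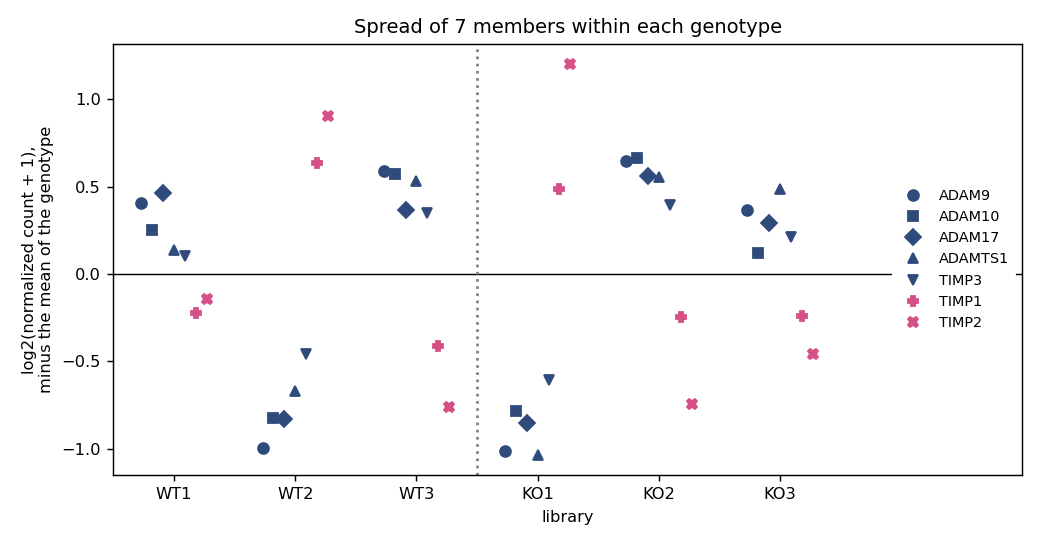
Deviation of 7 abundant or variable members from the mean of their genotype in each library, on the log2(normalized count + 1) scale, with a dotted line between wild-type (WT) and knockout (KO) libraries. ADAM9, ADAM10, ADAM17, ADAMTS1 and TIMP3 lie below 0 in WT2 and KO1 and above 0 in the other 4 libraries, and TIMP1 and TIMP2 do the reverse.

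Activators, inhibitors, escorts and substrates of these proteases were read from 7 lists with 72 genes. Of these, 56 were tested, and 6 were higher and 10 lower in knockout (28.6%, beside 12.8% of all tested genes), with a median log2 fold change of -0.23. The activator list had 0 higher and 1 lower of 8 tested, the lower being HPN, a membrane serine protease, at 84.3 ± 12.7 normalized counts in wild type and 9.04 ± 7.11 in knockout (SD, n = 3; -3.55, limma adjusted p = 0.0315). FURIN, which activates MMP11 and the membrane-anchored MMPs, did not pass (-0.21, SE 0.24, limma adjusted p = 0.629). Of 11 other inhibitors and cofactors, 2 were higher and 1 lower. A2M, a secreted trap for proteases of all classes, was at 3486, 1272 and 4010 in wild type and 34585, 71498 and 58291 in knockout (4.33, SE 0.47, limma adjusted p = 0.00142). Its relative PZP rose from 1.27 ± 1.16 to 93.8 ± 27.4 (5.51, limma adjusted p = 0.00276). SPOCK3, a testican that limits activation of pro-MMP2, fell from 54.7 ± 39.4 to 0.296 ± 0.513 (-5.10, limma adjusted p = 0.0136).

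Of 9 genes for the iRhom and TspanC8 proteins that escort ADAM17 and ADAM10, TSPAN15 and TSPAN33 were lower and 0 higher. TSPAN15, an escort of ADAM10, was at 930.4, 979.5 and 1015 normalized counts in wild type and 234, 93.6 and 110.2 in knockout (-2.85, SE 0.36, limma adjusted p = 0.00273), and TSPAN33 changed by -1.89 (SE 0.41, limma adjusted p = 0.0219). Of 11 tested genes for shed proteins, SDC1, the cell surface proteoglycan syndecan-1, was lower (-1.87, SE 0.32, limma adjusted p = 0.00993) and 0 were higher.

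VCAN, which encodes versican, a substrate of several ADAMTS enzymes, was at 18781, 15458 and 17408 normalized counts in wild type and 4534, 4404 and 3929 in knockout. It was 4.01-fold lower (SE 0.18 on the log2 scale, limma adjusted p = 0.000627). HAPLN1 and HAPLN3, link proteins that fix such proteoglycans to hyaluronan, were both higher (1.35 and 1.88, limma adjusted p = 0.00918 and 0.00481), so this list of 5 tested genes had 2 higher and 1 lower. Among 7 ADAMTS-like genes, which encode proteins without a protease domain, ADAMTSL2 (-3.68, limma adjusted p = 0.0119) and THSD4 (-2.94, adjusted p = 0.00414) were lower and ADAMTSL5 (1.35, adjusted p = 0.0213) was higher. Of 5 tested tolloid genes and helpers, which act in procollagen processing, PCOLCE (-1.08, limma adjusted p = 0.0253) and PCOLCE2 (-2.82, adjusted p = 0.00938) were lower and the protease TLL2 (1.74, adjusted p = 0.0182) was higher.

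**Figure D5:**
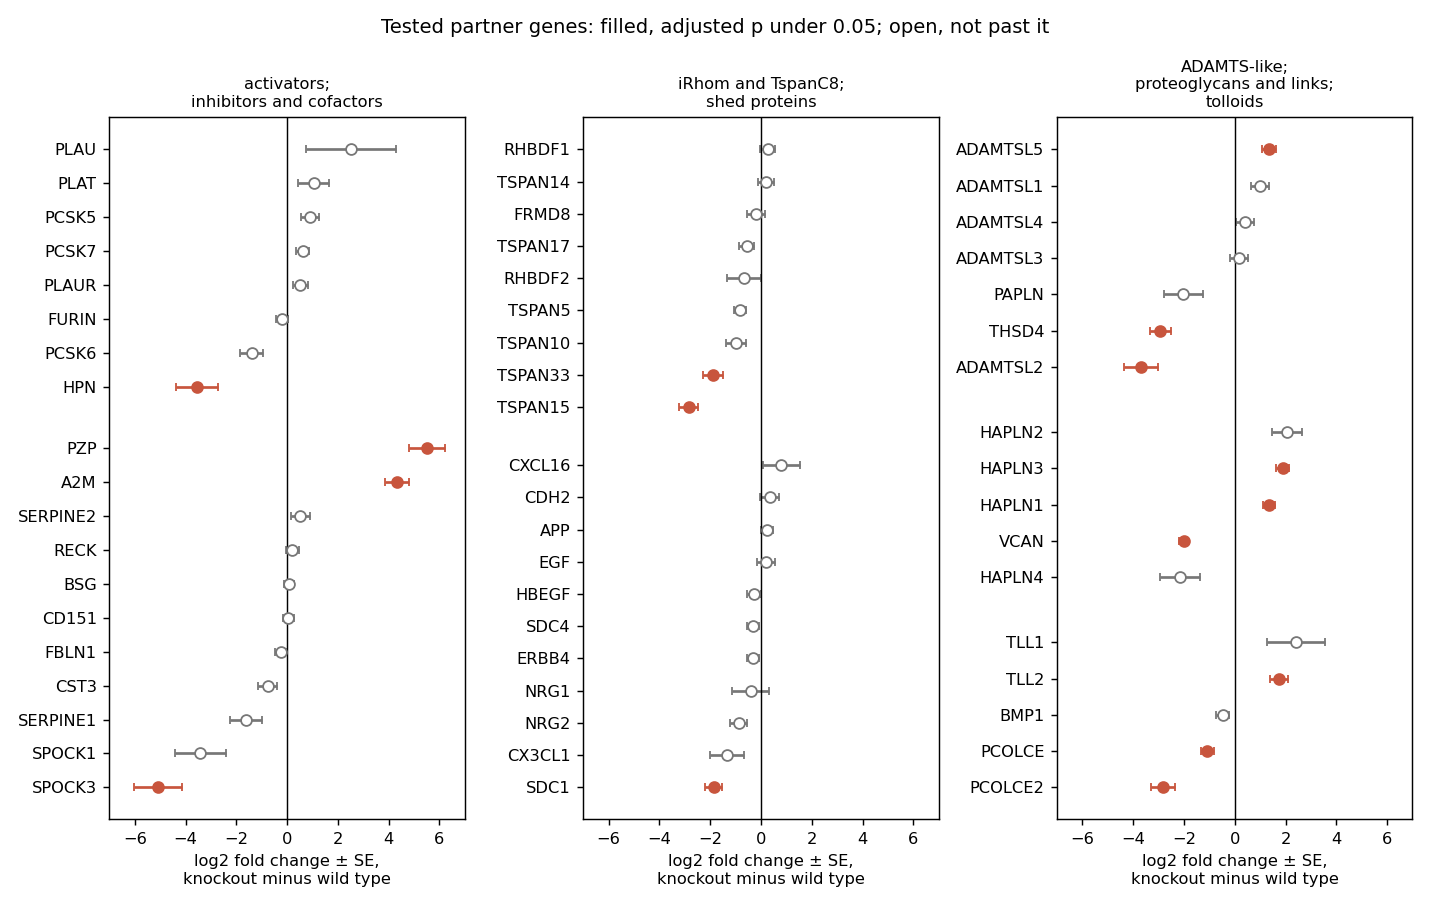
Log2 fold change of the 56 tested partner genes, knockout minus wild type, with its standard error from limma (3 against 3 libraries), grouped by list. Filled red points have an adjusted p under 0.05; A2M and PZP stand at 4.33 and 5.51, and SPOCK3 at -5.10.

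Several of these genes are also made by stromal, epicardial and smooth muscle cells, and markers of other cell types differed between the genotypes. In bulk RNA, fewer cells of a type and less RNA per cell cannot be told apart. The summed normalized counts of 9 smooth muscle and pericyte markers were 90916 to 99490 in wild type and 499356 to 549184 in knockout (4 higher and 0 lower of 9 tested). The higher genes were MYH11, CNN1, TAGLN and ACTA2. ACTA2 gave 70.9% of the sum, and without it the sums were 45323 to 47694 and 119117 to 152345. LMOD1 and PDGFRB had positive changes that did not pass (0.71 and 2.24). RGS5, CSPG4 and NOTCH3 had negative ones that did not pass (-0.13, -1.68 and -0.35). Fibroblast and stromal markers summed to 13009 to 26554 and 8515 to 16927, with 4 higher (DCN, COL3A1, TCF21, THY1) and 1 lower (COL1A2) of 10. Epicardial markers summed to 11624 to 15443 and 5524 to 5838 (1 higher and 1 lower of 7 tested). KRT19, the lower gene, gave 94.3% of that sum, and without it the sums were 293 to 348 and 608 to 873, higher in knockout, with ALDH1A2 as the higher gene. Endothelial markers summed to 1300 to 1412 and 2132 to 2986 (1 higher and 0 lower of 6 tested). The higher gene was ESAM, at 5.33 to 18.5 in wild type and 614 to 769 in knockout. It made up most of the rise, so the sum does not show a rise across this list. EGFL7 gave 58.3% of the sum, and without it the sums were 187 to 496 and 1198 to 1307. EGFL7, KDR, TEK and EMCN had positive changes that did not pass (0.20, 0.95, 1.56 and 1.44). PECAM1 had a negative one (-0.03). CDH5, VWF, ERG and CLDN5 were below the filter. Neural markers, given beside ADAM11, ADAM22 and MMP24, summed to 58.7 to 135 and 487 to 821 (3 higher and 0 lower of 5 tested). The higher genes were SOX2, PAX6 and TUBB3. TUBB3 gave 65.2% of the sum, and without it the sums were 28.9 to 33.2 and 170 to 325. DCX, STMN2 and ELAVL3 were below the filter, with wild-type means of 4.17, 5.81 and 2.55 and knockout means of 0.296, 1.93 and 12.5. Endoderm and liver markers summed to 2863 to 4928 and 2336 to 2541 (0 higher and 1 lower of 5), with FOXA2 and CDX2 at 0 in every library, and leukocyte markers to 379 to 1529 and 861 to 1533 (0 of 8). Pluripotency markers summed to 1193 to 1681 and 3104 to 4586 (1 higher and 0 lower of 6), of which TDGF1, the higher gene, gave 73.8%. Without TDGF1 the sums were 706 to 1118 and 492 to 622, lower in knockout. The part of these cell types in the changes of TIMP1, A2M and the other genes above was not tested.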

How the data were processed

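Bulk RNA-seq was read from 1 deposited table with 3 wild-type and 3 STK25 knockout columns, matched to samples by the names in the labels (0 value columns unused). Per the labels' protocols, total RNA came from a Qiagen RNeasy column with DNase treatment, and libraries were built with NexteraXT from cDNA of the Clontech Ultra Low v4 kit. The submitters' processing notes name bcl2fastq 2.19, kallisto 0.44.0, DESeq2 1.28.1 and GRCh38, and the annotation and strand use are not given in the sources used here.

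The deposited values are a signal, the authors' normalized counts per gene symbol. In every library 100% of the values were whole multiples, within 0.1, of a smallest step. They were turned back into whole counts per gene, which are called reads here. Whether these are counted reads or rounded estimates from kallisto is not given in the sources used here. PCR copies cannot be told from molecules. Of the genes listed, 11622 had no read.

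Limma 3.58.1 in R 4.3.3 (lmFit, eBayes with a trend, two-sided) was fitted on log2(value + 1) over all genes with a mean of at least 10, with no covariate, Benjamini-Hochberg adjustment and a threshold of 0.05. Each SE is limma's moderated one. The added 1 shrinks fold changes of low genes, whereas zeros in some libraries can make them larger than the ratio of means. ADAMTS14, for example, was 10.0-fold lower by the fit, with a knockout mean at 34.6% of the wild-type mean. edgeR 4.0.16 and DESeq2 1.42.0 on the recovered reads were among 20 alternatives, with other pseudocounts, filters and scalings, a replicate block and libraries left out. The fitting script was tested on simulated data. Exon lengths, overlaps and positions came from GENCODE 29 on GRCh38, and all 65 members had a length. Each length is that of the exons of a gene merged over its annotated transcripts. It can exceed the length of the transcript expressed, so rankings and shares per kb are rough. Promoters came from RefSeq on GRCh38.p14. Tables and figures used Python 3.11.15 and matplotlib 3.10.9. Protein sequences were not analysed here.

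Members, lists and tests were chosen with earlier results of these data known. Values are given for STK25, for MMP23B as the near name outside the rule, for members with an adjusted p under 0.05 or from 0.05 to 0.1, for all TIMP genes, for the 4 highest members per kb of each other family and for partner genes under 0.05. Other members named with values, FURIN and the single marker genes given with values were chosen after their values were seen. Replicates of a genotype differed by more than counting noise in every pair (chi-square/df 18.9 to 363), and each library is 1 replicate.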

Additional observations from a re-analysis of the deposited data

How the results depend on the processing

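The calls of ADAM11, ADAM22, ADAMTS6, ADAMTS15, ADAMTS19 and TIMP1 held in all 20 alternatives. Members called higher numbered 1 with equal totals, 1 with a replicate block, 5 with DESeq2, 8 without wild-type replicate 2 and knockout replicate 1 together, and 1 to 5 when 1 library was left out (1 without wild-type replicate 3 or knockout replicate 2, and 5 without knockout replicate 1). Members called lower numbered 14 without wild-type replicate 2 and knockout replicate 1 together and 5 to 8 when 1 library was left out. The share of all tested genes called, in either direction, moved as well. It was 13.0% with equal totals, 5.14% with a replicate block and 20.7% with DESeq2. It was 30.6% without wild-type replicate 2 and knockout replicate 1 together, and 5.11% to 14.2% when 1 library was left out. The median log2 fold change of the members moved to -0.71 with equal totals, where the median of all genes was -0.28, and lay between -0.49 and -0.18 with any 1 library removed, the latter without wild-type replicate 3. The sign turned for ADAM10 (-0.75 to 0.059 when 1 library was left out) and ADAM17 (-0.48 to 0.36). The cause of these shifts was not tested. Among the values of single members, 414 kept their direction and side of the threshold, 27 no longer passed, 31 newly passed and 4 turned sign.

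Replicate numbers did not pair the samples: the correlations of same-numbered deviations were -0.23, -0.40 and 0.17. With the replicate block, 7 members passed, 1 higher and 6 lower, and 798 of all genes against 1982. Depth limits the 16 members below the filter, for which 3 reads correspond to 1.91 to 4.53 normalized counts.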
